A study of Homo sapiens with 6 samples.

Results

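The mitochondrial ribosomal protein genes were the entries of the deposited table whose symbol was MRPL or MRPS followed by a number and, in some cases, a letter. There were 78 of them among 14136 gene entries, 49 with large subunit symbols (MRPL) and 29 with small subunit symbols (MRPS), on 21 chromosomes. RNA came from 6 libraries of Cal33, an established oral squamous cell carcinoma line. All cells had been infected with lentivirus packaged in 293FT, a packaging line of human embryonic kidney origin, and were kept under 0.5 ug/ml puromycin. The 3 Vector libraries carried the empty pSin-EF2 vector and the 3 CES2 libraries carried pSin-EF2 with FLAG-tagged carboxylesterase 2 (CES2), an esterase of the endoplasmic reticulum. The cells' own CES2 gene was present in both groups. The labels say neither whether each stable line was a pool or a clone nor whether the 3 libraries of a group were separate cultures. All p-values therefore rest on the spread between libraries, which may be technical. Those by limma, with their SEs and intervals, use a variance drawn towards a trend over all genes tested.

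Mitochondria keep a small genome that encodes core subunits of the respiratory chain, and a dedicated ribosome translates its mRNAs at the inner membrane. The RNA of this ribosome is transcribed inside the organelle, but its proteins are encoded in the nucleus, made in the cytosol and imported. Many of them descend from bacterial ribosomal proteins, and the others were added during mitochondrial evolution. The proteins are counted here through their nuclear mRNAs. Transcripts of the mitochondrial genome were not analysed here.

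The 5 promoter stretches printed here show sequence features that were frequent among the members. They are 100 bases upstream of a RefSeq start (GRCh38.p14), on the gene's strand, 5′ to 3′, and overlap no annotated exon of GENCODE release 29. Capitals mark the ETS core CGGAAG, which ETS factors such as GABPA recognise, and the SP1 box GGGCGG or its other strand CCGCCC. The first 4 are the members with an ETS match in such a stretch, and MRPL11, the member with the smallest spread over the libraries, has no match.
MRPL28 promoter, chr16:370539-370638, minus strand: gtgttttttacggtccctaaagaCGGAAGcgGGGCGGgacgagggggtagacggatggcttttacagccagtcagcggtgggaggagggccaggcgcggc
MRPL58 promoter, chr17:75012570-75012669, plus strand: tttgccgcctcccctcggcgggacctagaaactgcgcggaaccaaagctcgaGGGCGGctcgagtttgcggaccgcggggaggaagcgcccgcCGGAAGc
MRPS18A promoter, chr6:43687792-43687891, minus strand: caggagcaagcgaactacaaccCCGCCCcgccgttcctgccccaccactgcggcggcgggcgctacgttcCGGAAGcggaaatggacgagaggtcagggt
MRPS31 promoter, chr13:40771191-40771290, minus strand: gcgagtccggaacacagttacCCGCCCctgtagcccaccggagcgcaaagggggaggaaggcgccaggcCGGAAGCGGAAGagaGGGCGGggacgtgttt
MRPL11 promoter, chr11:66438849-66438948, minus strand: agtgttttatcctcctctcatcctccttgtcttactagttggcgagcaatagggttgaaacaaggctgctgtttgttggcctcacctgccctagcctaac

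RefSeq promoters, taken from 250 bases before to 50 after the start, were matched for 69 members with 85 promoters. MRPL2, MRPL10, MRPL13, MRPL15, MRPL21, MRPL23, MRPL35, MRPS28 and MRPS36 were not matched. On either strand, CGGAAG was present in 51.8% of the members' promoters and in 30.2% of the 14008 promoters of tested genes. AAGATGG, the core of the YY1 site, was present in 31.8% of the members' promoters and 7.01% of those of tested genes. The YY1 core lay within 50 bases after the start in 20% of the members' promoters (3.64% of tested genes) and before it in 12.9% (3.41%). The members thus held the ETS and YY1 letters more often than the promoters of tested genes did, a description with no test. The palindromic NRF1 site was present in 11.8% against 9.89%, and the SP1 box in 60% against 66.7%. None of these searches excluded overlaps between motifs, and a match is not shown to be a bound site. The median log2 fold change (CES2 against Vector) of members' promoters with an ETS match was 0.06 (n = 44) and without one 0.03 (n = 41), and with a YY1 match -0.00045 (n = 27) and without one 0.04 (n = 58). Here n counts promoters, so a gene with several promoters enters more than once. Such a gene can fall on both sides, as MRPL34 did for ETS.

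Values are TPM, an abundance scaled to transcript length and to the same total in each library, so levels of different genes can be set side by side. Column totals were 999804 to 999893 TPM, libraries had 73 to 279 blank entries, and TPM keeps no sequencing depth, so depth is unknown. The targeted gene CES2 read 45.6, 41.9 and 44.9 TPM in Vector 1 to 3 against 2664, 1929 and 2294 TPM in CES2 1 to 3. Its log2 fold change was 5.66 ± 0.18 (SE, n = 3 per group), with an adjusted p of 7.38e-06 by limma on log2(TPM + 1). By a two-sided exact permutation test p was 0.1, and groups of 3 cannot give a smaller one. All 9 listed markers of squamous epithelium were in the table, summing to 3720 to 4962 TPM in Vector against 3511 to 5035 TPM in CES2, although KRT14 was at 1.14 to 2.97 TPM. Markers of other cells were low in both groups, and their part in any result was not tested. The 1 fibroblast marker of 6 in the table, COL1A1, read 3.89 to 10.5 TPM, and the leukocyte markers CD68 and LYZ summed to 5.53 to 11.6 TPM, while PTPRC and CD3E were not in the table. The 3 of 4 endothelial markers in the table summed to 10.2 to 25.8 TPM in Vector against 11.2 to 20.5 TPM in CES2, nearly all from CDH5.

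No mitochondrial ribosomal protein gene of either subunit passed the test between CES2 and Vector cells. All 78 members passed the filter of at least 1 TPM in at least 3 libraries, as did 12210 genes in all. By limma with Benjamini-Hochberg adjustment over these genes, 0 of 49 large and 0 of 29 small subunit members had an adjusted p under 0.05, against 0.00819% of all genes tested, which was CES2 alone. An unadjusted p under 0.05 was reached by 1 large subunit member, MRPL49, and no small subunit member, against 1.09% of all genes. CES2 libraries lay above every Vector library for 1 member, MRPL41 (1.07% of all genes), and below every Vector library for 1 member, MRPL42 (2.63% of all genes). All of these counts are near what the whole table gave. In a bulk library, fewer cells with an mRNA and less of it per cell cannot be told apart.

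Log2 fold changes, which are differences of log2(TPM + 1) between CES2 and Vector, were centred close to 0 in both subunits. The median was 0.03 over the large subunit (range -0.45 to 0.75, 28 of 49 above 0) and 0.03 over the small subunit (range -0.24 to 0.18, 16 of 29 above 0). Over all genes tested the median was -0.06, with 36.3% above 0. The medians of the large and small subunit turned negative without Vector 1, at -0.10 and -0.06, and without CES2 3, at -0.09 and -0.09. They were 0.15 and 0.11 without Vector 2, and 0.13 and 0.11 without CES2 2. In 72 of the 78 members the difference was smaller than the mean SD within the groups. The 95% intervals state what these libraries could still hide: they lay within a 2-fold change either way for 75 members, among them all 29 of the small subunit, and within a 1.5-fold change for 33. A p that missed the threshold is thus no proof of equal expression, and changes up to those bounds are not excluded. The bounds are not a detection limit either: MRPL49, whose interval lies off 0, was not called after adjustment.

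**Figure D1:**
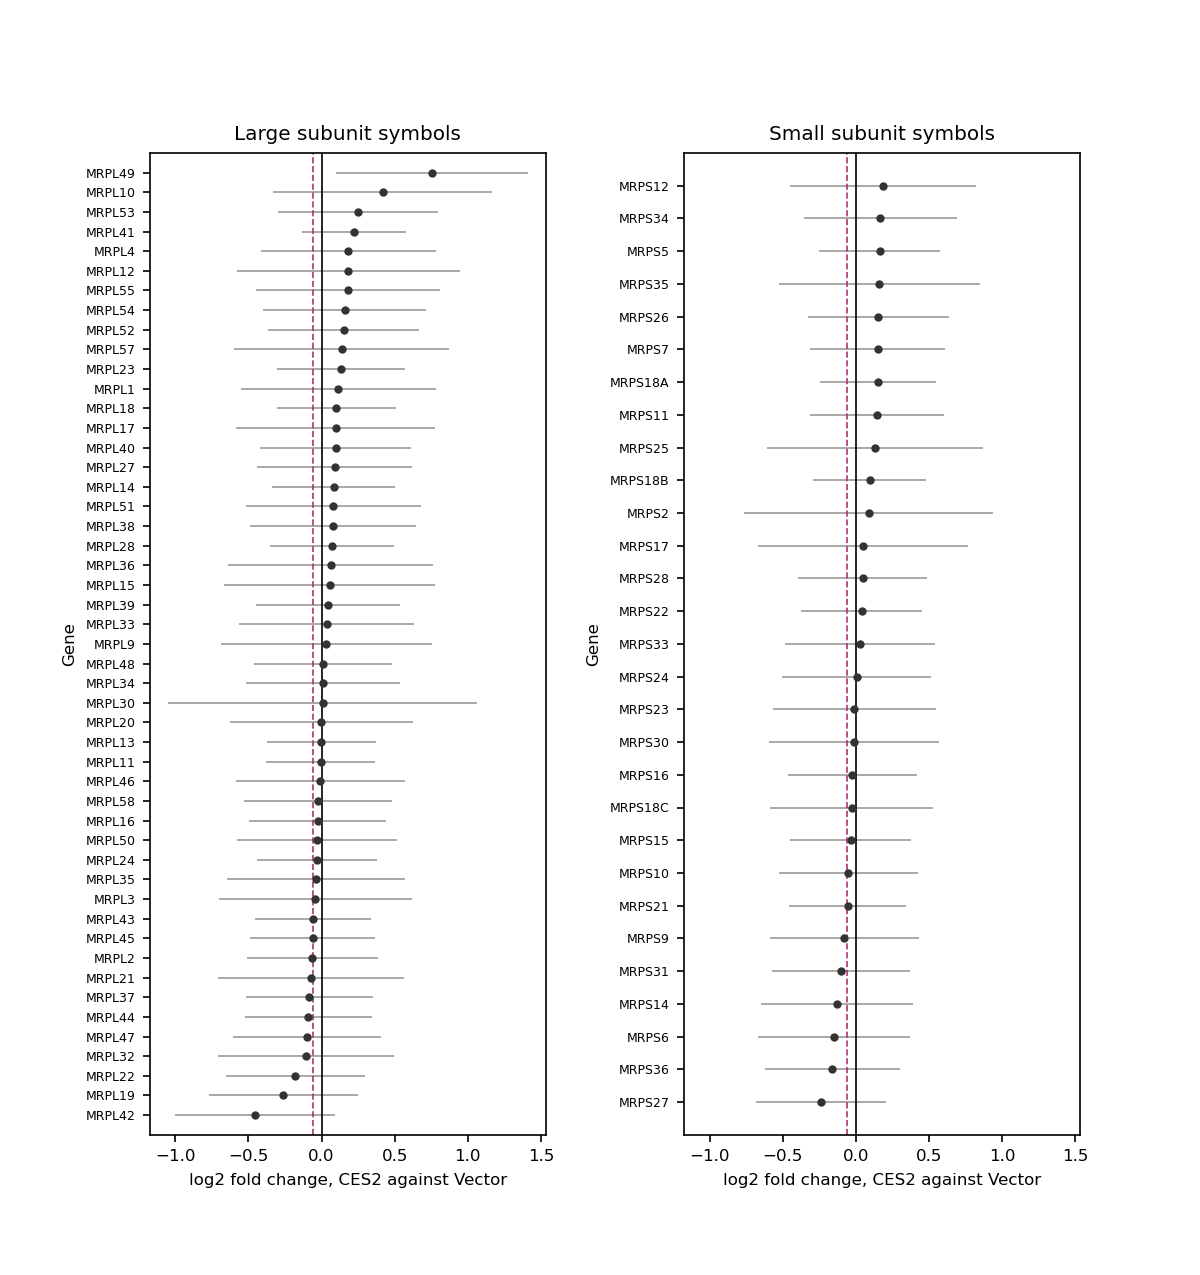
Log2 fold change of each member (x axis, CES2 against Vector, difference of log2(TPM + 1)) with its 95% interval as a horizontal line, large subunit symbols on the left and small on the right. The solid line marks 0 and the dashed line the median of all genes tested (-0.06), and only the interval of MRPL49 (0.10 to 1.41) lies off 0.

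The levels spanned a 20.4-fold range of mean TPM although the proteins are built into 1 particle. Over the 6 libraries, member means ran from 20.8 to 424 TPM with a median of 105 TPM, against a median of 28.1 TPM over all genes tested. In all, 41 members averaged at least 100 TPM and 14 averaged under 50 TPM. The lowest and the highest library of a member differed by a median of 1.62-fold, from 1.14-fold for MRPL11 to 3.35-fold for MRPL30.

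**Figure D2:**
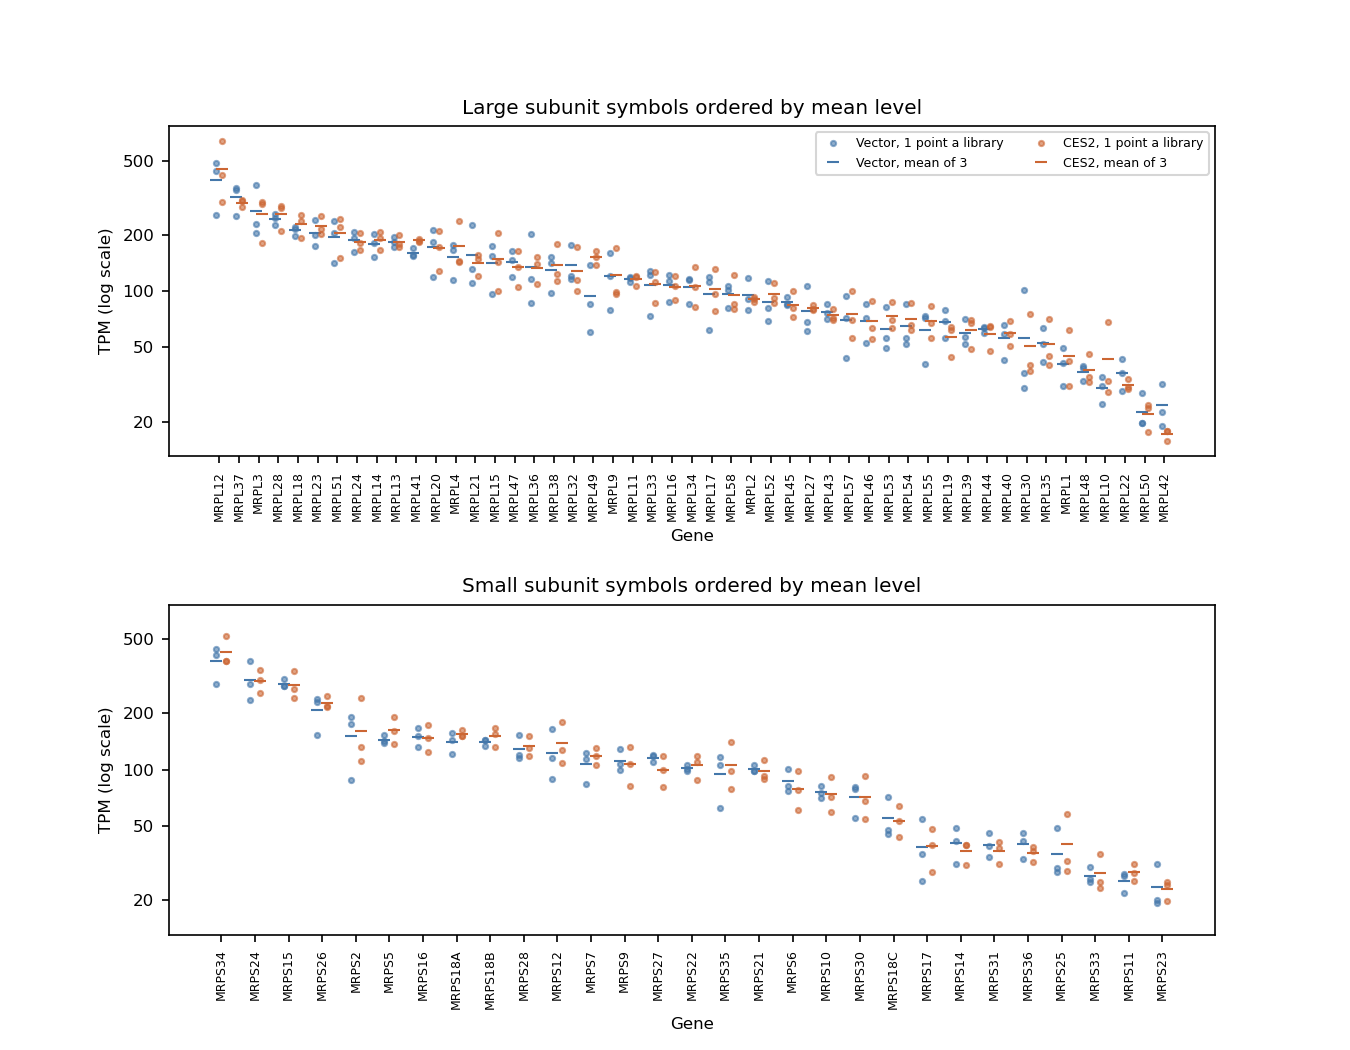
TPM of every member in each library (y axis, log scale), ordered by mean level within the large subunit symbols (top) and the small subunit symbols (bottom), with points for libraries and dashes for the mean of 3. The order runs from MRPL12 and MRPS34 at the high end to MRPL42 and MRPS23 at the low end, and Vector and CES2 points overlap for all members except MRPL41 and MRPL42.

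At the top of the large subunit stood MRPL12, a protein of the flexible stalk that receives translation factors. It read 255, 486 and 442 TPM in Vector 1 to 3 against 420, 301 and 637 TPM in CES2 1 to 3. Vector 1 and CES2 2 were its low libraries and CES2 3 its high one, and the groups overlapped (log2 fold change 0.18 ± 0.33 SE). MRPL37 followed at 252, 350 and 357 TPM in Vector against 303, 284 and 307 TPM in CES2, all CES2 values lying inside the Vector range. MRPL3, the counterpart of a bacterial protein that reaches towards the peptidyl transferase centre, read 204, 369 and 230 TPM in Vector against 299, 180 and 293 TPM in CES2. MRPL12 was above both others in every library, while MRPL37 was above MRPL3 in all but Vector 2.

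Among small subunit symbols the highest was MRPS34, a protein added in mitochondria, with 289, 412 and 445 TPM in Vector against 380, 380 and 522 TPM in CES2. MRPS24, at the mRNA entry, read 236, 383 and 287 TPM in Vector against 302, 257 and 340 TPM in CES2. MRPS15 was steadier, at 280, 280 and 305 TPM in Vector against 272, 243 and 336 TPM in CES2. Vector and CES2 overlapped for all 3. MRPS34 was above both others in every library, while MRPS24 and MRPS15 changed places between libraries.

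At the low end of the large subunit, MRPL50 read 19.6, 28.3 and 19.6 TPM in Vector against 23.6, 17.6 and 24.4 TPM in CES2, and MRPL22, which lines the exit tunnel, read 43.3, 36.2 and 29.2 TPM and 33.9, 30.0 and 30.8 TPM. In the small subunit, MRPS23 read 19.4, 31.2 and 20.1 TPM in Vector against 24.2, 19.7 and 25.1 TPM in CES2. MRPS11, on the platform, read 21.9, 26.9 and 27.5 TPM and 28.0, 25.2 and 31.3 TPM, and MRPS33 read 25.0, 30.0 and 25.8 TPM and 35.3, 25.2 and 23.2 TPM. MRPL22 was above MRPL50 and MRPL42 in every library. MRPS23, MRPS11 and MRPS33 changed places between libraries, so their order is not resolved. The table lists 1 transcript per entry, which was the longest annotated one for 41 members. It was annotated as protein-coding for 76 members, and under nonsense-mediated decay for MRPL13 and MRPS11. The listed transcripts of MRPL42, MRPL50 and MRPS23, each the longest annotated, were 15582, 3332 and 5621 bases long, against a member median of 1248 bases. The part of transcript length in these levels was not tested.

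MRPL49, a large subunit protein without a bacterial counterpart, had the smallest unadjusted p of all members. Its gene (ENSG00000149792) lies on the plus strand at chr11:65122311-65126004 (GRCh38), with 3 exons in the listed transcript. It read 138, 84.9 and 60.8 TPM in Vector 1 to 3 against 153, 138 and 165 TPM in CES2 1 to 3. Vector 1 reached the lowest CES2 library, and Vector 3 was far below the rest. The log2 fold change was 0.75 ± 0.29 (SE), with an unadjusted p of 0.0292 and an adjusted p of 1.00 by limma, and it ran from 0.48 without Vector 3 to 1.06 without Vector 1. The listed transcript had 518 bases, the longest annotated one 2526, and the gene starts 162 bases from FAU on the opposite strand, with the 2 overlapping by 163 bases. FAU encodes a cytosolic ribosomal protein fused to a ubiquitin-like part, read 784 to 1053 TPM in the 6 libraries, and had a log2 fold change of 0.10. How the authors' counting treated strand is not given in the sources used here, so reads shared between the pair cannot be placed.

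MRPL42, which also has no bacterial counterpart, lay lowest of all members in mean level and had the most negative difference. It read 18.9, 31.7 and 22.6 TPM in Vector against 17.8, 15.7 and 17.9 TPM in CES2. The CES2 libraries were all below the Vector libraries, the closest pair, Vector 1 and CES2 3, being 18.9 and 17.9 TPM. The log2 fold change was -0.45 ± 0.24 (SE, unadjusted p = 0.0911 by limma), and -0.26 without Vector 2, the highest library. MRPL42 (chr12:93467488-93516213, plus strand) has 4 named pseudogenes in GENCODE release 29, and the authors' treatment of reads that match several places is not given in the sources used here.

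MRPL41, a large subunit protein without a bacterial counterpart, was the only member with every CES2 library above every Vector library. It read 155, 156 and 170 TPM in Vector against 190.0, 186 and 184 TPM in CES2. The values within each group were close, and the gap between the groups was narrow, from 170 to 184 TPM. The log2 fold change was 0.22 ± 0.16 (SE, unadjusted p = 0.194 by limma, 95% interval -0.14 to 0.58). That SE draws on the variance of other genes too, and the gene's own mean SD within the groups was 0.05 log2 units. MRPL41 (chr9:137551199-137552555, plus strand) had the highest GC content of all members, 71.9% of its listed transcript.

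Of the stalk genes, which number 3, MRPL10 rested on 1 library and MRPL11 barely moved. MRPL10 read 34.5, 31.1 and 24.7 TPM in Vector against 28.9, 33.0 and 67.9 TPM in CES2, so that only CES2 3 exceeded the Vector range. Its log2 fold change was 0.42 ± 0.33 (SE) with that library and 0.05 without it. MRPL11 read 119, 117 and 111 TPM in Vector against 121, 106 and 119 TPM in CES2, with a log2 fold change of -0.01 ± 0.16 (SE). These proteins sit together on the particle, and their mRNAs differed in mean level from 36.7 TPM for MRPL10 over 116 TPM for MRPL11 to 424 TPM for MRPL12.

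The core of the large subunit, represented by MRPL2, MRPL3, MRPL4 and MRPL16 around the peptidyl transferase centre, had a median log2 fold change of -0.03, with 1 of 4 above 0 and 0 called. The member above 0 was MRPL4, which read 115, 176 and 167 TPM in Vector against 144, 146 and 237 TPM in CES2 (0.18 ± 0.26 SE). CES2 3 alone lay above its Vector range. MRPL2 was tight in CES2, at 86.9, 93.4 and 91.0 TPM, and wider in Vector, at 90.2, 117 and 79.6 TPM, with all CES2 values inside the Vector range.

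Around the exit of the nascent chain, 2 of the 6 members listed were above 0, with a median of -0.05 and 0 called. MRPL45, which helps to dock the ribosome at the inner membrane, read 83.8, 85.8 and 92.9 TPM in Vector against 81.1, 72.4 and 100.2 TPM in CES2. The CES2 libraries fell on both sides of the Vector range. MRPL23 differed from Vector by 0.13 ± 0.19 (SE), MRPL17 by 0.10 ± 0.30, MRPL24 by -0.03 ± 0.18, MRPL47 by -0.10 ± 0.22 and MRPL22 by -0.18 ± 0.21 on the log2 scale, each with overlapping groups.

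The central protuberance, where the subunits meet over the bound tRNAs, had 6 of 8 members above 0, a median of 0.08 and 0 called. MRPL18 read 198, 215 and 221 TPM in Vector against 236, 192 and 256 TPM in CES2 (0.10 ± 0.18 SE). MRPL58, a peptidyl-tRNA hydrolase that became a structural protein of this region, read 80.8, 102 and 107 TPM in Vector against 80.2, 85.0 and 122 TPM in CES2 (-0.02 ± 0.22 SE). For MRPL58 the CES2 libraries spanned the whole Vector range. MRPL55 had the highest value of the group, 0.18 ± 0.27 (SE), and 7 of the 8 genes were highest in CES2 3.

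Of the large subunit members outside these role groups, MRPL19 and MRPL53 are given for their size, chosen after their values were seen. MRPL19 read 56.0, 79.6 and 68.9 TPM in Vector against 61.8, 44.5 and 64.2 TPM in CES2 (-0.26 ± 0.22 SE). MRPL53 read 49.5, 56.1 and 82.6 TPM in Vector against 63.7, 69.9 and 87.3 TPM in CES2 (0.25 ± 0.24 SE). The groups overlapped for both. MRPL13 was among the steadiest, at 183, 194 and 173 TPM in Vector against 201, 178 and 171 TPM in CES2, a range of 1.17-fold. MRPL36, the smallest protein of the bacterial large subunit set, ranged more widely, from 86.8 TPM in Vector 1 to 201 TPM in Vector 2, with CES2 libraries at 140.2, 109 and 152 TPM between them.

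The small subunit genes at the decoding site and along the mRNA path were all above 0, 4 of 4, with a median of 0.12 and 0 called. MRPS12, the counterpart of a bacterial decoding-site protein, read 89.5, 166 and 115 TPM in Vector against 128, 109 and 180 TPM in CES2 (0.18 ± 0.28 SE). MRPS5, at the mRNA entry, read 139, 154 and 142 TPM in Vector against 162, 138 and 190 TPM in CES2 (0.16 ± 0.18 SE, unadjusted p = 0.397 by limma). MRPS2 read 88.1, 175 and 191 TPM in Vector against 132, 111 and 241 TPM in CES2 (0.09 ± 0.37 SE), the widest spread of any small subunit member. In each of these genes CES2 2 was lower than CES2 1 and CES2 3, and the groups overlapped. The direction of MRPS2, MRPS24 and MRPS12 was not stable. Without Vector 1, MRPS2 and MRPS24 were at -0.26 and -0.16. The lowest value under any alternative run was -0.02 for MRPS12 and 0.05 for MRPS5.

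In the head of the small subunit 3 of 7 members were above 0 (median -0.05, 0 called), and in its body, platform and foot 5 of 11 (median -0.02, 0 called). MRPS27, a protein of the foot with pentatricopeptide repeats, had the smallest unadjusted p of the small subunit. It read 120.0, 118 and 110 TPM in Vector against 99.3, 80.4 and 119 TPM in CES2. CES2 3 lay inside the Vector range and the other CES2 libraries below it, and the log2 fold change was -0.24 ± 0.19 (SE, unadjusted p = 0.257 by limma). It was -0.09 without CES2 2 and -0.37 without CES2 3. MRPS35 in the head, at 62.4, 106 and 117 TPM in Vector against 97.9, 78.3 and 141 TPM in CES2, and MRPS22 in the body, at 101, 106 and 98.6 TPM and 119, 88.3 and 110 TPM, also overlapped. Their log2 fold changes were 0.16 ± 0.30 and 0.04 ± 0.18 (SE).

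The MRPS18 paralogues, 3 genes related to a single bacterial protein, differed in level. MRPS18A, which despite its symbol is built into the large subunit, read 121, 145 and 157 TPM in Vector against 152, 152 and 163 TPM in CES2 (0.15 ± 0.17 SE). MRPS18B read 134, 145 and 144 TPM in Vector against 154, 133 and 167 TPM in CES2 (0.10 ± 0.17 SE). MRPS18C, the paralogue at the bacterial position, read 45.3, 71.6 and 47.8 TPM in Vector against 52.9, 43.3 and 63.9 TPM in CES2 (-0.03 ± 0.24 SE). MRPS18C was below both others in every library. Its share of the summed TPM of the paralogues was 16.2% ± 3.22 in Vector and 14.7% ± 1.51 in CES2 (SD, n = 3), a difference within the spread.

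Other symbols also depart from the particle. MRPS30 is built into the large subunit and read 55.2, 81.0 and 78.6 TPM in Vector against 67.7, 54.2 and 93.0 TPM in CES2 (-0.01 ± 0.25 SE). MRPS36 is now assigned to the 2-oxoglutarate dehydrogenase complex and read 45.8, 41.7 and 33.1 TPM in Vector against 38.4, 31.8 and 36.8 TPM in CES2. Only CES2 2 fell below the Vector range of MRPS36 (-0.16 ± 0.20 SE, unadjusted p = 0.452 by limma). Members with a bacterial counterpart and those without had like centres: 27 of 48 above 0 with a median of 0.02, and 17 of 30 above 0 with a median of 0.04.

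Summed over genes, the level of both subunits varied more between libraries than the proportion between them. Large subunit symbols summed to 4933, 6793 and 5855 TPM in Vector 1 to 3 against 6054, 5259 and 6887 TPM in CES2 1 to 3. Small subunit symbols summed to 2883, 3658 and 3513 TPM in Vector against 3352, 2987 and 4065 TPM in CES2. Vector 1 and CES2 2 were the low libraries for both subunits. CES2 3 was the highest and Vector 2 came next, close to it for the large subunit. Together the members took 0.782% to 1.10% of each library's TPM. The sum over both was 9212 ± 1324 TPM in Vector against 9535 ± 1358 TPM in CES2 (SD, n = 3), a difference of 3.50% that is smaller than either SD. In Vector the small to large ratio was 0.585, 0.539 and 0.600, against 0.554, 0.568 and 0.590 in CES2, or 0.574 ± 0.032 against 0.571 ± 0.018 (SD). With MRPS18A and MRPS30 counted in the large subunit and MRPS36 left out, it was 0.512 ± 0.026 against 0.508 ± 0.018. The highest library exceeded the lowest by 40.1% in the summed level of all members but by 11.4% in the ratio.

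**Figure D3:**
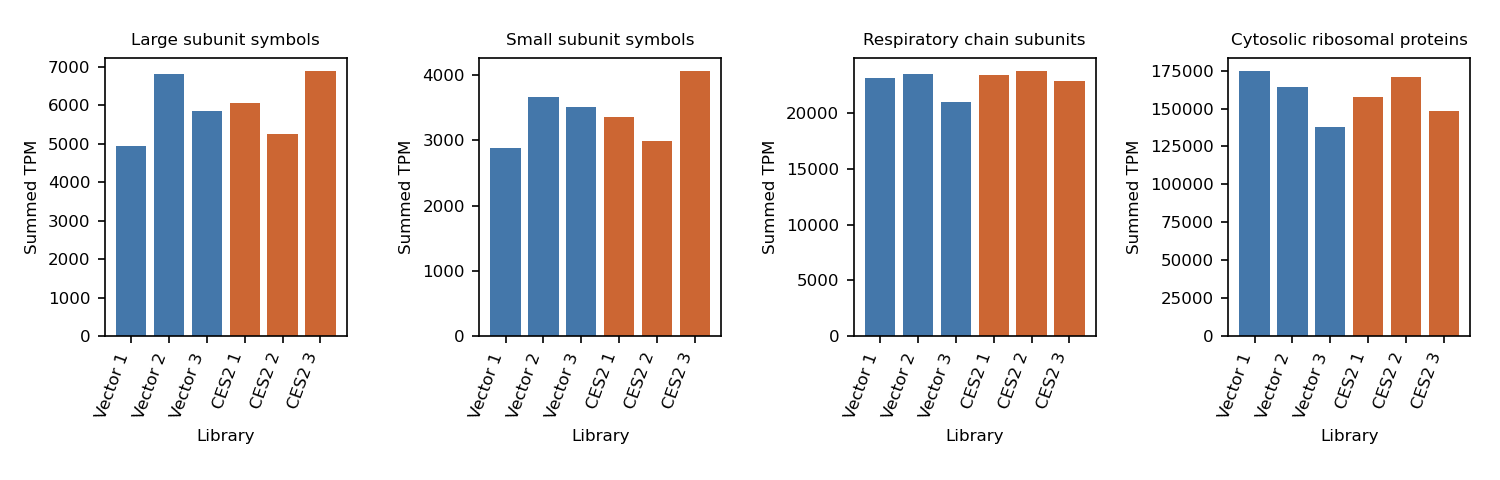
Summed TPM per library (bars, y axes from 0 with their own scales; blue for Vector, orange for CES2) of large subunit symbols, small subunit symbols, nuclear-encoded respiratory chain subunits and cytosolic ribosomal proteins. Both mitochondrial subunits are lowest in Vector 1 and highest in CES2 3, whereas cytosolic ribosomal proteins are highest in Vector 1 (174832 TPM) and lowest in Vector 3 (138062 TPM).

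The members differed together between single libraries. As the median over members of log2(TPM + 1) minus the gene's own mean, Vector 1 to 3 stood at -0.21, 0.14 and 0.04 and CES2 1 to 3 at 0.01, -0.22 and 0.23. Large and small subunit symbols gave a similar course, with -0.21 and -0.17 in Vector 1 and 0.19 and 0.12 in Vector 2. In CES2 2 they stood at -0.19 and -0.23, and in CES2 3 at 0.23 and 0.22. Over all genes tested the same medians were 0.04, -0.09, 0.14, -0.00084, -0.02 and -0.05. CES2 3 was the highest library for 40 members (51.3%, against 15.3% of all genes tested), and Vector 2 for 19 (24.4% against 11.5%). The subunits differed in part: Vector 2 was highest for 30.6% of large but 13.8% of small subunit symbols. Vector 3 was lowest for 24.5% of large but 3.45% of small ones. Vector 1 and CES2 2 were each the lowest library for 29 members (37.2%), against 18.4% and 20.5% of all genes. These shares are descriptions of the 6 libraries with no test, and the libraries concerned belong to both groups.

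**Figure D4:**
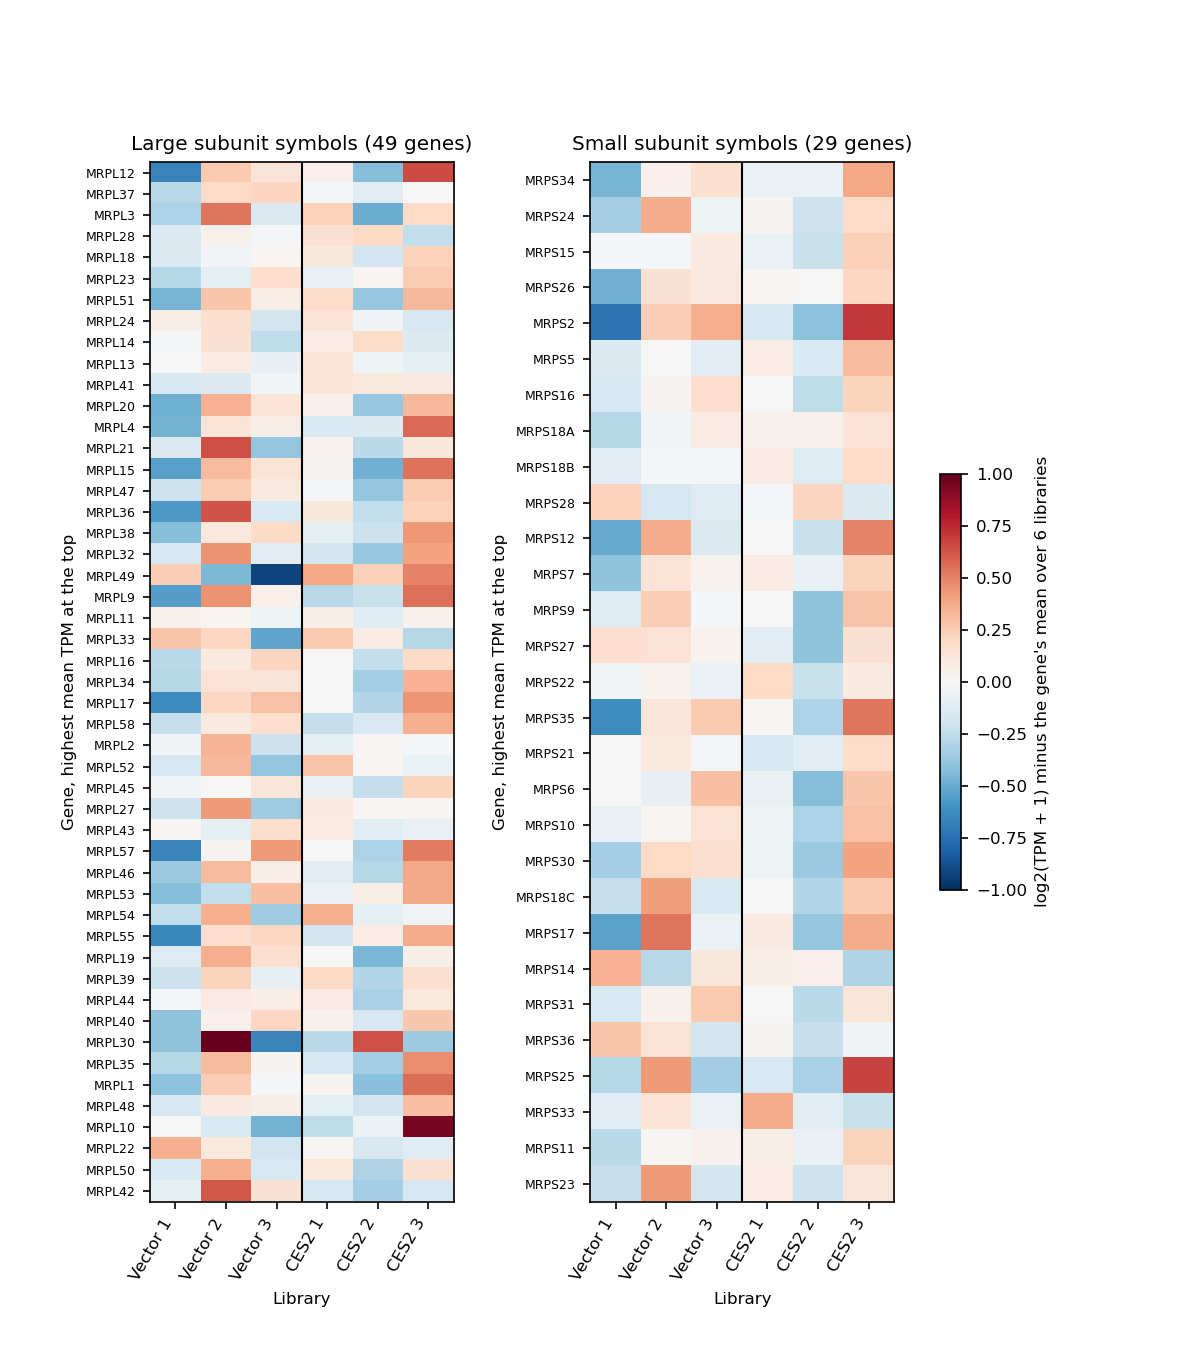
Deviation of each member in each library from its own mean over the 6 libraries (colour, log2(TPM + 1) units), with large subunit symbols on the left, small subunit symbols on the right and a line between Vector and CES2. Columns rather than groups stand out: Vector 1 and CES2 2 are mostly blue (medians -0.21 and -0.22) and CES2 3 mostly red (median 0.23). Vector 2 had the next highest median, 0.14.

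The course by library was not particular to the members, as some related lists came close to it. Assembly and rRNA modification genes had medians of -0.28, 0.04 and 0.11 in Vector 1 to 3 against -0.01, -0.15 and 0.21 in CES2 1 to 3. Translation factors had -0.25, 0.07 and 0.05 against 0.004, -0.23 and 0.23. CES2 3 was the highest library for 50% and 42.9% of these lists. Cytosolic ribosomal and respiratory chain genes gave other medians. Cytosolic ribosomal proteins, 84 tested, had medians of 0.15, 0.08 and -0.20 in Vector 1 to 3 against 0.01, 0.05 and -0.08 in CES2 1 to 3, and 36 of them were highest in Vector 1 while 48 were lowest in Vector 3. Nuclear-encoded respiratory chain subunits, which assemble with the proteins made on the mitochondrial ribosome, stayed between -0.06 and 0.04 in all libraries, and summed to 22575 ± 1369 TPM in Vector against 23348 ± 479 TPM in CES2 (SD, n = 3). Of 79 respiratory chain genes 54 were above 0 (median log2 fold change 0.04), and of the cytosolic ribosomal proteins 45 (median 0.004), with 0 called in both. Why libraries differed in this way was not tested.

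Among the members with the widest spread, MRPL30 departed from the members' course by library and MRPS25 followed it only in part. MRPL30 read 36.2, 101 and 30.2 TPM in Vector against 40.0, 75.8 and 37.5 TPM in CES2, and was high in Vector 2 and CES2 2 only. Its log2 fold change of 0.01 ± 0.46 (SE) had the widest interval of all members, -1.05 to 1.07. MRPL30 overlaps 2 other listed entries on its own strand, AC079447.1 and AC092587.1. These read at most 0.97 and 1.93 TPM in any library. Whether reads were divided between the entries was not tested. MRPS25 read 29.5, 48.8 and 28.2 TPM in Vector against 32.4, 28.7 and 58.2 TPM in CES2 (0.13 ± 0.32 SE, and -0.17 without CES2 3). It was highest in CES2 3 and low in Vector 1 and CES2 2. Its lowest library was Vector 3, where the median deviation of the members was 0.04.

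Fold changes of the members were related to the base composition of their transcripts. Across the 78 members, log2 fold change and the GC content of the listed transcript had a Spearman correlation of 0.56, and across 12205 genes tested 0.30. Points are genes measured in the same 6 libraries and are not independent, so no p is given. In the 26 members lowest in GC (35% to 46.3%) the median was -0.04 with 8 above 0. In the 26 highest (54.0% to 71.9%) it was 0.11 with 21 above 0. MRPL42 (38.4% GC) and MRPS36 (35%) were among the low 26, and MRPL41 (71.9%) and MRPL49 (58.7%) among the high 26. With transcript length the correlation was -0.22 over members and -0.19 over all genes. The part of GC content in the differences of single members was not tested.

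**Figure D5:**
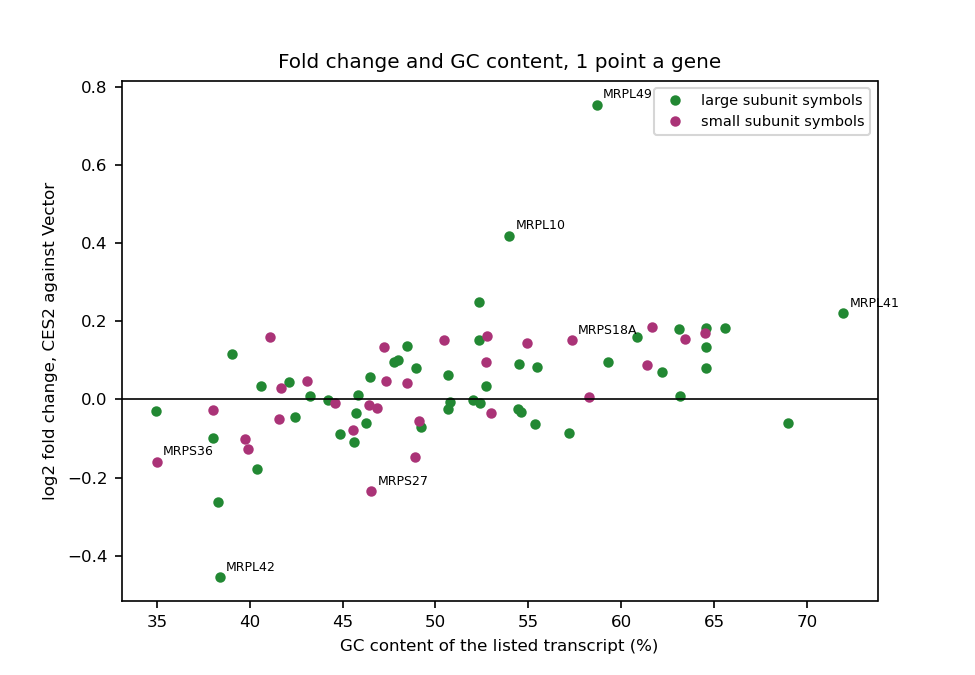
Log2 fold change of each member (y axis, CES2 against Vector) against the GC content of its listed transcript in percent (x axis), with large subunit symbols in green and small ones in purple. Points climb from left to right (Spearman 0.56 over 78 genes), with MRPL42 at 38.4% GC lowest and MRPL49 at 58.7% highest in fold change.

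Many members sit beside other genes. A start within 1000 bases of a neighbour's start on the opposite strand was found for 26 of 78 members (33.3%), against 12.9% of all entries. MRPS11 and MRPL46, 1 gene of each subunit, start 34 bases apart, and read -0.01 ± 0.25 (SE) for MRPL46 and 0.14 ± 0.20 for MRPS11 on the log2 scale. MRPS12 starts 348 bases from SARS2, the mitochondrial seryl-tRNA synthetase, MRPL43 171 bases from TWNK, the helicase of mitochondrial DNA, and MRPL47 48 bases from NDUFB5, a subunit of complex I. Of the 26 distinct pairings, 10 had the same sign of fold change, 2 partners were not tested, and no partner had an adjusted p under 0.05. TWNK spread widely, at 13.0, 13.4 and 13.9 TPM in Vector against 26.1, 5.72 and 30.8 TPM in CES2. Its neighbour MRPL43 did not share that spread, at 76.3, 70.5 and 85.6 TPM in Vector against 80.2, 70.3 and 71.8 TPM in CES2. Overlap with another listed gene was present for 23 members (29.5%, against 20.4% of all entries), 8 of them on the same strand, as for MRPS6 with SLC5A3 and MRPS17 with NIPSNAP2. Named pseudogenes were annotated for 34 members, up to 8 for MRPS21. Values of those members are uncertain to the extent that reads were shared.

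Subunits of the particle that carry other symbols were described apart. Of these 5, 2 were above 0, with a median of -0.04 and 0 called. AURKAIP1 of the small subunit read 142, 257 and 241 TPM in Vector against 248, 190.5 and 316 TPM in CES2 (0.25 ± 0.28 SE). GADD45GIP1 of the large subunit read 87.6, 147 and 161 TPM in Vector against 129, 122 and 226 TPM in CES2 (0.26 ± 0.31 SE). Both were lowest in Vector 1 and highest in CES2 3, as were many members. DAP3, the GTP-binding protein of the small subunit's head, was at -0.08 ± 0.16 (SE).

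Assembly factors and enzymes that modify the ribosomal RNA, 26 genes, had 15 above 0, a median of 0.02 and 0 called. ERAL1, a GTPase that chaperones the small subunit's RNA, read 70.3, 67.9 and 74.0 TPM in Vector against 83.7, 85.9 and 81.1 TPM in CES2. Its CES2 libraries all lay above its Vector libraries, and the log2 fold change was 0.24 ± 0.16 (SE, unadjusted p = 0.178 by limma). METTL15, an RNA methyltransferase, read 26.2, 16.2 and 21.0 TPM in Vector against 18.4, 17.4 and 13.3 TPM in CES2 (-0.34 ± 0.25 SE), with overlapping groups.

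Translation factors and mRNA-binding activators, 14 found of 15 symbols with MTRFR present as C12orf65, had 7 above 0, a median of 0.004 and 0 called. C12orf65, of the release factor family, was at 0.29 ± 0.33 (SE) and LRPPRC, which stabilises mitochondrial mRNAs, at -0.14 ± 0.20. The 22 mitochondrial aminoacyl-tRNA synthetases and amidotransferase subunits had 7 above 0 (31.8%), a median of -0.04 and 0 called. Their smallest p-values belonged to FARS2 (-0.21 ± 0.21 SE) and HARS2 (-0.20 ± 0.21), which charge tRNAs with phenylalanine and histidine. Over all genes tested the median was -0.06, with 36.3% above 0. The synthetase list thus lay near all genes, and the translation factor list, with 50% above 0, lay somewhat higher.

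Genes of mitochondrial transcription and DNA replication, 9 with TWNK, POLG and POLG2 among them, had 3 above 0, a median of -0.02 and 0 called. MTERF1, which binds a termination site in the mitochondrial DNA, read 15.2, 12.8 and 14.5 TPM in Vector against 12.4, 10.6 and 11.6 TPM in CES2. Its CES2 libraries all lay below its Vector libraries (-0.27 ± 0.21 SE, unadjusted p = 0.217 by limma). POLRMT, the mitochondrial RNA polymerase, was at 0.15 ± 0.18 (SE). Among NRF1, its partners and coactivators, 9 of 10 were tested, 2 were above 0, the median was -0.05 and 0 were called. NRF1 itself, the nuclear factor named for respiratory genes, read 18.9, 26.5 and 24.2 TPM in Vector against 22.7, 20 and 24.0 TPM in CES2 (-0.05 ± 0.21 SE). MYC, a transcription factor for ribosome genes among others, read 12.3, 18 and 54.3 TPM in Vector against 8.37, 10.9 and 16.9 TPM in CES2. The high Vector value of MYC came from Vector 3 alone, the groups overlapped, and the log2 fold change was -0.94 ± 0.51 (SE, unadjusted p = 0.0992 by limma). GABPA, the ETS factor whose core is marked in the promoters above, was at -0.20 ± 0.22 (SE).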

How the data were processed

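RNA from 3 Vector and 3 CES2 libraries was depleted of ribosomal RNA and made into strand-specific libraries, per the labels' protocols. The deposited table of 14136 entries has no unit in its header, and TPM was inferred from column totals close to 1e+06. Tools listed in the submitters' processing notes are HISAT2 2.1.0, StringTie 1.3.3 and edgeR 3.0.8, with the builds hg38 and GRCh38, and no roles are given. TPM keeps no depth, so no counting interval is given, and a change in abundant transcripts shifts all others. Blanks were read as 0. Genes that reached 1 TPM in 3 or more libraries (12210) were compared as log2(TPM + 1) by limma 3.58.1 (R 4.3.3, trend, group only), with Benjamini-Hochberg adjustment and a threshold of 0.05. Fold changes on this scale understate changes of low genes. The members and lists were chosen with earlier results of these data known. Named by rule were, in each subunit, the 4 members with the smallest p, the 3 highest and 3 lowest in level, the 2 with the widest spread, the MRPS18 genes, and the 2 genes with the smallest p of each related list. Other members are examples of their role group or location, chosen after their values were seen. Gene models came from GENCODE release 29, in which all 78 listed transcripts had the same coordinates, and promoters from RefSeq (GRCh38.p14). The test was tried on simulated data, and the outcome is not given here. Python 3.11.15 with pandas 2.3.3, scipy 1.17.1 and matplotlib 3.10.9 was used.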

Additional observations from a re-analysis of the deposited data

How the results depend on the processing

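Under all alternatives run, 0 members of either subunit had an adjusted p under 0.05 by limma. These were each library left out, the replicate block, median rescaling, quantile normalization, pseudocounts of 0.1 and 0.01, no filter, a mean of at least 5 TPM, no trend, library weights and a threshold of 0.1. Over all genes tested, 1 was called in the reported fit, 4 with library weights, and 1 to 2 with a library left out, the 2 without CES2 3. With the replicate block 1 gene was called and 134 had an unadjusted p under 0.05, against 133 without it, and the subunit medians were 0.03 and 0.03. Same-numbered libraries correlated at 0.15, -0.52 and 0.37 in their deviations from the group means. Vector 1 correlated with CES2 2 at 0.68 and with CES2 3 at -0.68, and Vector 2 with CES2 3 at 0.43. Only Vector 3 and CES2 1 correlated best with their own number. Deviations centred within groups of 3 cannot show how libraries were paired or processed. With median rescaling the subunit medians were 0.09 and 0.09. Of 360 values of the 24 named members under 15 alternatives, 318 kept their direction and 42 did not, all of them without a call in any fit. With a library left out, the log2 fold changes that changed sign ran from -0.10 to 0.44 for MRPL12, -0.22 to 0.21 for MRPL3, -0.32 to 0.54 for MRPL30, -0.25 to 0.0027 for MRPL37, -0.12 to 0.14 for MRPL50, -0.16 to 0.068 for MRPS15, -0.16 to 0.18 for MRPS18C, -0.26 to 0.31 for MRPS2, -0.13 to 0.20 for MRPS23, -0.16 to 0.19 for MRPS24, -0.17 to 0.38 for MRPS25, -0.15 to 0.15 for MRPS33 and -0.021 to 0.29 for MRPS34. Signs also changed with median rescaling (MRPL3 0.017, MRPL50 0.031, MRPS15 0.025, MRPS18C 0.035 and MRPS23 0.052), with quantile normalization (MRPL50 0.050, MRPS18C 0.031, MRPS23 0.069 and MRPS24 -0.025) and with library weights (MRPL3 0.20, MRPL50 0.11, MRPS18C 0.023, MRPS2 -0.16, MRPS23 0.10 and MRPS34 -0.0021). The cause was not tested. Depth is unknown, and the 3 libraries per group limit the precision.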
